A study of Drosophila melanogaster with 6 samples.

Results

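The genes described here are those whose transcript level in all 4 knockdown libraries of S2 cells lay on one side of both control libraries. S2 cells are a line of Drosophila melanogaster that was set up from embryos and resembles blood cells. The groups were NAP-1 knockdown (NAP1KD, 2 samples), CBP knockdown (CBPKD, 2 samples) and control knockdown (controlKD, 2 samples), all grown in Schneider's medium with serum. The labels name neither the target of the control knockdown nor the time after knockdown. Separate cultures for the 2 samples of each group are not recorded either, and the spread behind the p-values may therefore be technical. Of 4093 genes with a mean of at least 1 RPKM (reads per kilobase of transcript, scaled to sequencing depth), 243 lay above both controls and 837 below both controls. These 1080 genes are called one-sided below, and the other 3013 genes had knockdown and control values that overlapped.

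NAP-1 is a histone chaperone: it carries core and linker histones and hands them to DNA during nucleosome assembly. CBP, encoded by nej, is an acetyltransferase that modifies histones and serves as a coactivator at many enhancers and promoters. The title of the series concerns acetylation of the linker histone H1, which binds where DNA enters and leaves the nucleosome.

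The libraries had 4162019 to 5362319 alignments. Nap1 had 20.6 and 26.5 RPKM in NAP1KD, 325 and 365 RPKM in CBPKD, and 220 and 243 RPKM in control. It was lower in NAP1KD than in control (log2 difference -3.25 ± 0.27, SE; limma, adjusted p = 0.0266), and that call was lost when any 1 of the 6 libraries was left out. Since Nap1 was higher in CBPKD than in control by value, it is not one-sided. Of 12 blood cell markers, 3 were analysed (crq, Cg25C and vkg), and they summed to 158 and 183 RPKM in NAP1KD, 93.9 and 72 RPKM in CBPKD, and 193 and 188 RPKM in control; the part of blood cell markers in the results was not tested. Of 5 neuron markers only elav was analysed (0.255 to 1.3 RPKM in the knockdowns, against 3.26 and 0.749 RPKM in control), of 5 muscle markers only Mlc2 (1.42 to 2.77 RPKM, against 1.82 and 2.29 RPKM), and of the germ line and fat body markers none. The muscle gene sls, which another list held, had 1.45 and 2.93 RPKM in NAP1KD, 0.614 and 0.137 RPKM in CBPKD, and 3.2 and 2.07 RPKM in control; its CBPKD difference was -1.40 (limma, adjusted p = 0.04). In bulk samples, fewer cells of a type and less RNA per cell cannot be told apart.

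The nej transcript was one-sided by a narrow margin. It had 1.26 and 2.41 RPKM after NAP-1 knockdown, 0.899 and 0.363 RPKM after CBP knockdown, and 3.25 and 2.47 RPKM after control knockdown. The CBPKD libraries were lowest, and NAP1KD replicate 2 lay just under control replicate 2. The difference from control was -1.26 ± 0.37 in CBPKD (SE, limma, adjusted p = 0.0444) and -0.47 ± 0.37 in NAP1KD (adjusted p = 0.98). The CBPKD call for nej held in 3 of 14 alternative analyses, with adjusted p between 0.0391 and 0.222 over them. With a trend on transcript length removed, nej was no longer one-sided, and its difference from control turned positive in each knockdown, to 0.52 in CBPKD and 0.19 in NAP1KD (pooled 0.36). The sign of the nej difference therefore depends on that setting; nej transcripts are long, with a median of 13566.5 nt.

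The comparison of both knockdowns with control asked which transcripts moved the same way in both knockdown groups. One-sided genes were 5.94% of the 4093 above the controls and 20.4% below them. The pooled test, the mean of the knockdown groups minus control in limma, called 0 genes higher and 0 lower at an adjusted p under 0.05. Without adjustment, 336 genes (8.21%) were higher and 807 (19.7%) lower at the same level. The smallest adjusted p was 0.0827, shared by 130 genes, and at an adjusted p under 0.1, a threshold added after the data were seen, 80 genes were higher (1.95%) and 309 lower (7.55%). The one-sided rule and the pooled test use the same values, so neither supports the other.

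Among the genes above the controls the median pooled difference was 0.70 on the log2(RPKM + 1) scale, where the changes of low genes come out too small. It was -0.98 among the genes below, against -0.14 over all genes. The median gap, meaning the distance between the nearest knockdown library and the nearest control library, was 0.13 above and 0.17 below. Of the genes above, 19 had a gap of at least 0.5 and 96 a gap under 0.1. Of the genes below, 54 had a gap of at least 0.5 and 266 a gap under 0.1. The knockdown library nearest to the controls was NAP1KD replicate 2 for 153 genes above and 488 below. Control replicate 2 was the lower control in 78.5% of the genes below, against 52.4% of all genes. Leaving out a library drops a condition of the rule, so the counts can then only rise or stay. Without NAP1KD replicate 2 the counts were 928 above and 1342 below, and without control replicate 2 they were 646 and 1306. The count above was 384 without NAP1KD replicate 1 and 393 without control replicate 1.

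**Figure D1:**
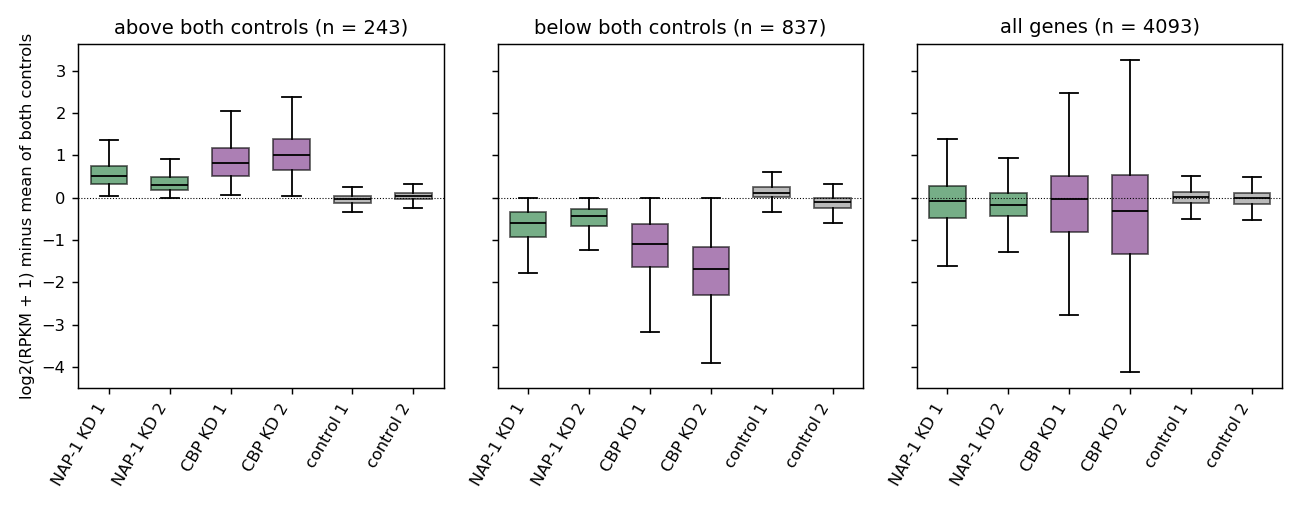
Log2(RPKM + 1) of each gene minus its mean over both controls (y axis), by library (x axis; KD, knockdown), for genes above the controls, genes below them and all genes; boxes show quartiles with the median, and whiskers reach the last value within 1.5 box lengths. In genes above the controls the medians are 0.51 and 0.30 in NAP1KD and 0.82 and 1.00 in CBPKD; in genes below they are -0.58 and -0.43 in NAP1KD and -1.09 and -1.68 in CBPKD.

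The 12 genes of widest gap above the controls were CG3793, CG11329, Arp10, CG14818, CG15766, Qtzl, CG44303, CG9804, CG4646, CG10418, CG7322 and CG7630. CG3793 had the widest gap (1.67), with 3.41 and 6.88 RPKM in NAP1KD, 9.01 and 3.93 RPKM in CBPKD, and 0.389 and 0.341 RPKM in control. CG11329, which RefSeq names Nse1, a subunit of the Smc5/6 complex that keeps chromosomes intact, had 4.37 and 4.68 RPKM in NAP1KD, 6.55 and 2.34 RPKM in CBPKD, and 0.140 and 0.129 RPKM in control. Both genes were near the floor in the controls and reached like levels in each knockdown: the NAP1KD minus CBPKD differences were -0.25 ± 0.45 and 0.14 ± 0.43 (SE). Pooled differences were 2.24 ± 0.39 and 2.21 ± 0.37 (SE, limma, adjusted p = 0.0827 each).

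Arp10, a subunit of the pointed end of dynactin, the cofactor of the dynein motor, had 7.81 and 6.89 RPKM in NAP1KD, 7.28 and 20.3 RPKM in CBPKD, and 1.34 and 2.49 RPKM in control. Its 3 lowest knockdown libraries lay within 1 RPKM of each other, and CBPKD replicate 2 stood apart above them. CG15766, named AgmNAT by RefSeq, an agmatine N-acetyltransferase, had 3.89 and 3.41 RPKM in NAP1KD, 5.6 and 5.31 RPKM in CBPKD, and 1.06 and 0.588 RPKM in control. Its replicates were close within each knockdown, and the pooled difference was 1.60 ± 0.26 (SE, limma, adjusted p = 0.0827). Qtzl, a young chimeric gene of this species, had 5.86 and 8.21 RPKM in NAP1KD, 3.64 and 5.72 RPKM in CBPKD, and 0.798 and 1.48 RPKM in control. Here the NAP1KD difference (1.91 ± 0.35) was the larger by value than the CBPKD difference (1.40 ± 0.35), and the difference between them, 0.51 ± 0.35, did not pass (limma, adjusted p = 0.336).

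CG14818 differed from these in its size between knockdowns. It had 1.92 and 1.20 RPKM in NAP1KD, 6.67 and 8.42 RPKM in CBPKD, and 2.49e-05 and 1.55e-05 RPKM in control. NAP1KD was lower than CBPKD by value in each pairing, with a NAP1KD minus CBPKD difference of -1.75 ± 0.32 (SE, limma, adjusted p = 0.0443). CG9804, named Lipt2 by RefSeq, which transfers the octanoyl group from which lipoate is made, had 8.02 and 5.03 RPKM in NAP1KD, 10.2 and 11.7 RPKM in CBPKD, and 2.63 and 2.44 RPKM in control. CG7630, named COX7B, a subunit of cytochrome c oxidase, had 45.4 and 48.8 RPKM in NAP1KD, 59.6 and 70.7 RPKM in CBPKD, and 22.9 and 28.4 RPKM in control. It was the most abundant of these 12 genes, and its pooled difference was 1.09 ± 0.22 (SE, limma, adjusted p = 0.0827).

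Of the other genes in that set, CG44303 had 25.4 and 27.6 RPKM in NAP1KD, 45.1 and 33.1 RPKM in CBPKD, and 14.6 and 14.4 RPKM in control. CG10418 had 15.2 and 8.30 RPKM in NAP1KD, 17.5 and 18.8 RPKM in CBPKD, and 4.70 and 4.68 RPKM in control. The controls agreed closely for both genes, and the knockdown libraries did not. CG7322 had 2.51 and 1.06 RPKM in NAP1KD, 2.86 and 3.82 RPKM in CBPKD, and 0.293 and 0.000245 RPKM in control. CG4646 had 3.97 and 16.6 RPKM in NAP1KD, 3.95 and 5.78 RPKM in CBPKD, and 0.0499 and 2.02 RPKM in control. It varied most between replicates, with a pooled difference of 2.05 ± 0.61 (SE, limma, adjusted p = 0.107). All 12 genes stayed above both controls under median-of-ratios scaling, quantile normalization and removal of the length trend. Each of these settings raised the median pooled difference of all genes, and a general rise favours staying above. Removal of the length trend, however, moved each gene by its length. It raised CG3793 (pooled difference 2.24 to 2.31) and Arp10 (1.88 to 1.90). It lowered the others in the set, such as CG44303 (1.09 to 0.75) and CG7630 (1.09 to 0.76).

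**Figure D2:**
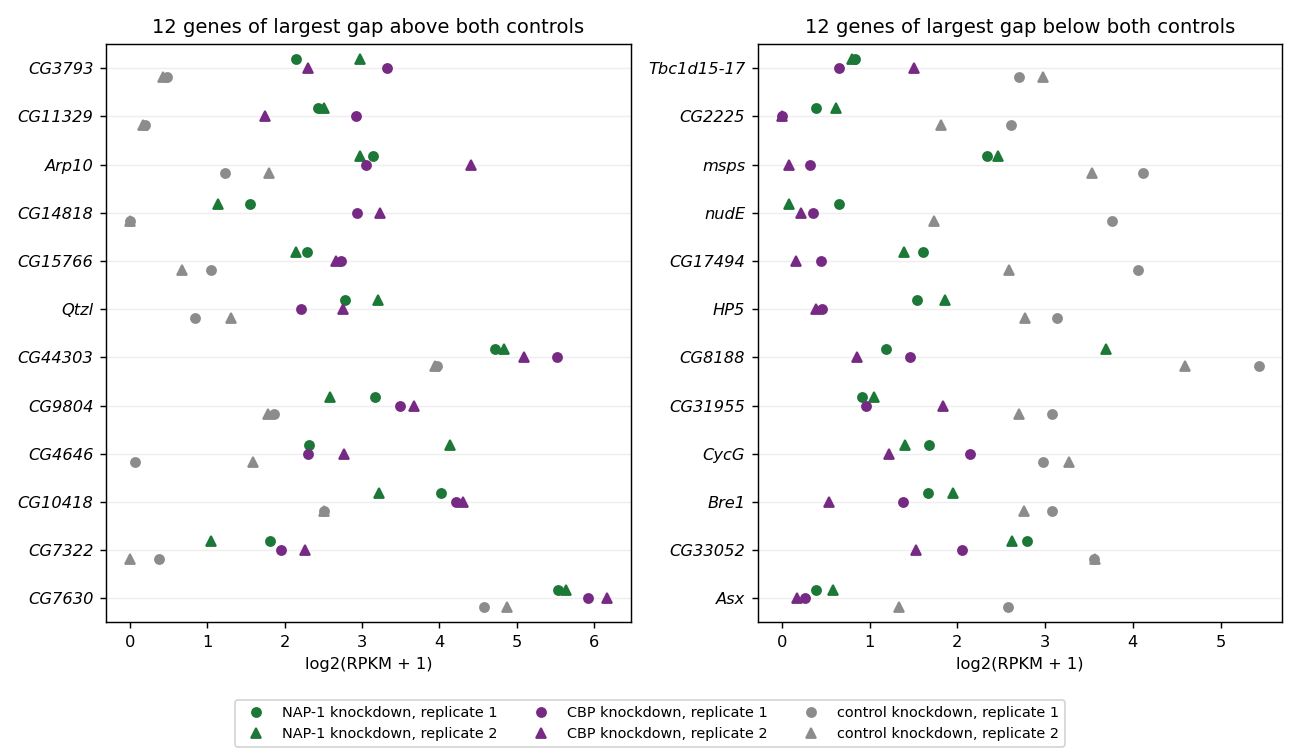
Level of each gene as log2(RPKM + 1) (x axis) in the 6 libraries for the 12 genes of largest gap above (left) and below (right) both controls; each point is 1 library, by group (colour) and replicate (shape). CG3793 has all knockdown libraries at or above 3.41 RPKM and both controls at or below 0.389 RPKM; Tbc1d15-17 has all knockdown libraries at or below 1.83 RPKM and both controls at or above 5.52 RPKM.

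The 12 genes of widest gap below the controls were Tbc1d15-17, CG2225, msps, nudE, CG17494, HP5, CG8188, CG31955, CycG, Bre1, CG33052 and Asx. Tbc1d15-17, which carries the TBC domain of proteins that switch off Rab GTPases, had the widest gap (1.21), with 0.782 and 0.743 RPKM in NAP1KD, 0.569 and 1.83 RPKM in CBPKD, and 5.52 and 6.87 RPKM in control. The pooled difference was -1.89 ± 0.32 (SE, limma, adjusted p = 0.0827), and the knockdowns differed by -0.26 ± 0.37. CG2225 had 0.308 and 0.532 RPKM in NAP1KD, 2.49e-05 and 0.0038 RPKM in CBPKD, and 5.12 and 2.51 RPKM in control. Its CBPKD libraries were near 0, and its NAP1KD libraries were low but above them.

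The gene msps, which encodes a microtubule polymerase needed for spindle assembly, had the smallest unadjusted p of the pooled test (4.1e-05; limma, adjusted p = 0.0827). It had 4.05 and 4.52 RPKM in NAP1KD, 0.248 and 0.0588 RPKM in CBPKD, and 16.4 and 10.6 RPKM in control. The groups stood in 3 steps, and the NAP1KD minus CBPKD difference was 2.20 ± 0.33 (SE, adjusted p = 0.0345). nudE, a regulator of dynein at kinetochores and spindle poles, had 0.576 and 0.0553 RPKM in NAP1KD, 0.281 and 0.161 RPKM in CBPKD, and 12.6 and 2.32 RPKM in control. For nudE the knockdowns overlapped each other (difference 0.08 ± 0.64) while the controls differed by several fold. CG17494, named Slmap by RefSeq, a component of the STRIPAK phosphatase complex, had 2.06 and 1.62 RPKM in NAP1KD, 0.362 and 0.118 RPKM in CBPKD, and 15.6 and 5.02 RPKM in control.

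Chromatin genes in the set were HP5, Bre1 and Asx. HP5, a heterochromatin protein, had 1.90 and 2.63 RPKM in NAP1KD, 0.374 and 0.309 RPKM in CBPKD, and 7.82 and 5.85 RPKM in control, a pooled difference of -1.90 ± 0.27 (SE, limma, adjusted p = 0.0827). Bre1, the ligase that attaches ubiquitin to histone H2B, had 2.17 and 2.86 RPKM in NAP1KD, 1.61 and 0.457 RPKM in CBPKD, and 7.43 and 5.76 RPKM in control. Asx, a partner of the deubiquitinase that removes ubiquitin from histone H2A, had 0.308 and 0.496 RPKM in NAP1KD, 0.198 and 0.130 RPKM in CBPKD, and 4.95 and 1.53 RPKM in control. HP5 and Bre1 kept their side under the 3 other scalings, while Asx overlapped the controls once the length trend was removed (pooled difference -0.68; median transcript length 6510 nt).

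CycG, a cyclin with roles in growth control and DNA repair, had 2.19 and 1.64 RPKM in NAP1KD, 3.41 and 1.33 RPKM in CBPKD, and 6.88 and 8.69 RPKM in control. CG33052, named Gorab, a Golgi protein that in Drosophila also acts in centriole duplication, had 5.95 and 5.17 RPKM in NAP1KD, 3.14 and 1.89 RPKM in CBPKD, and 10.8 and 10.9 RPKM in control. In CycG the knockdowns overlapped each other, and in CG33052 they did not. CG8188 had 1.27 and 11.9 RPKM in NAP1KD, 1.75 and 0.808 RPKM in CBPKD, and 42.2 and 23.1 RPKM in control. CG31955 had 0.888 and 1.07 RPKM in NAP1KD, 0.943 and 2.57 RPKM in CBPKD, and 7.43 and 5.50 RPKM in control. CG8188 had the most negative pooled difference of the 12 genes, -3.22 ± 0.66 (SE, limma, adjusted p = 0.0827), with NAP1KD replicate 2 far above the other knockdown libraries.

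Both knockdowns are set against the same 2 control libraries, and the values of each are given side by side. In the genes above the controls the median difference was 0.40 in NAP1KD and 0.90 in CBPKD. In the genes below it was -0.52 in NAP1KD and -1.40 in CBPKD. By size, the CBPKD difference was the larger in 211 genes above and 785 below, and the NAP1KD difference in 32 above and 52 below. Among the 3013 overlapping genes the CBPKD difference was the larger in 2400 and the NAP1KD difference in 613. The larger CBPKD difference was therefore not limited to one-sided genes. Over all genes, NAP1KD against control called 0 higher and 1 lower (0.0244%, Nap1), with 39 higher (0.953%) and 98 lower (2.39%) before adjustment, and CBPKD against control called 346 higher (8.45%) and 741 lower (18.1%). Of the one-sided genes, 95 above (39.1%) and 495 below (59.1%) were called in CBPKD, which the rule favours, and 0 in NAP1KD. Without CBPKD replicate 2, or without control replicate 1, no gene was called in CBPKD. The counts above and below were 45 and 413 without CBPKD replicate 1, and 13 and 233 without control replicate 2.

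The direct test of NAP1KD against CBPKD does not use the control levels in its difference, but the controls enter the estimate of spread. It called 117 of the 4093 genes higher in NAP1KD (2.86%) and 97 lower (2.37%), 214 in all (5.23%), of which 17 were above the controls (7.0% of those above) and 81 below (9.68% of those below). In all 98 CBPKD lay further from control than NAP1KD. These calls were lost without NAP1KD replicate 2, CBPKD replicate 2 or either control (0 above and 0 below each), and also with a pseudocount of 0.1, with a replicate block and with single features; without CBPKD replicate 1 they were 6 above and 108 below. Some genes had small differences between the knockdowns by value, which with 2 samples a group does not show that the knockdowns are alike. loqs, which encodes a double-stranded RNA-binding partner of Dicer, had 8.38 and 9.20 RPKM in NAP1KD, 7.20 and 12.2 RPKM in CBPKD, and 4.40 and 3.88 RPKM in control, with a NAP1KD minus CBPKD difference of -0.09 ± 0.32. Atg12, the ubiquitin-like protein of autophagosome formation, had 5.64 and 5.10 RPKM in NAP1KD, 5.92 and 4.89 RPKM in CBPKD, and 2.05 and 2.85 RPKM in control. Tip60 is an acetyltransferase of H2A and H4. It had 3.87 and 3.9 RPKM in NAP1KD, 5.50 and 4.38 RPKM in CBPKD, and 7.31 and 7.49 RPKM in control. Both CBPKD values lay above both NAP1KD values, and the NAP1KD minus CBPKD difference was -0.28 ± 0.27 (SE, limma, adjusted p = 0.502).

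**Figure D3:**
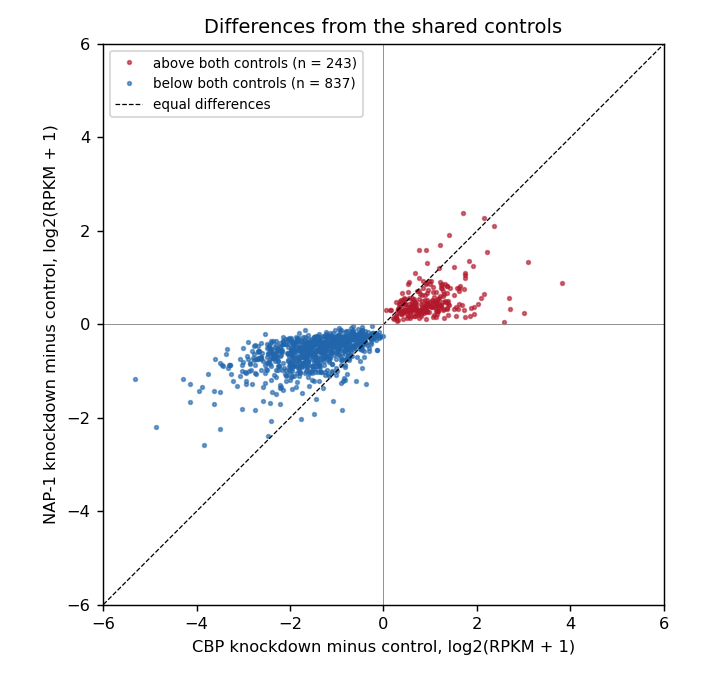
Each point is 1 of the 243 genes above or 837 genes below both controls, by its CBP knockdown minus control difference (x axis) and its NAP-1 knockdown minus control difference (y axis), both in log2(RPKM + 1); the dashed line marks equal differences. Both axes subtract the same 2 control libraries, and the sign of each point is set by the choice of genes. On the CBP knockdown axis 785 genes below and 211 above are further from 0, as are 2400 of the 3013 overlapping genes, which are not shown.

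At the edge of the rule, ATPsynG (its RefSeq name), a subunit of ATP synthase, had 16.7 RPKM in its lowest knockdown library (NAP1KD replicate 1) and 16.7 RPKM in its highest control. CG15210 had 0.0932 and 0.000246 RPKM in NAP1KD, 4.56 and 5.41 RPKM in CBPKD, and 1.6e-05 and 7.25e-15 RPKM in control, so it counts as one-sided with NAP1KD near the floor. Just outside were CG3097 and CR44417, with 4.13 and 3.24 RPKM and 4.64 and 2.04 RPKM in CBPKD and nothing above 0.00105 RPKM in the other libraries. Among the genes below, Mulk, a multiple substrate lipid kinase, had 6.01 RPKM in CBPKD replicate 1 against 6.02 RPKM in control replicate 1, and app, a palmitoyltransferase that acts in Fat signalling, had 1.77 RPKM in both NAP1KD replicate 2 and control replicate 2. HHEX and east missed by as little, with 2.86 RPKM in both NAP1KD replicate 2 and control replicate 2 for HHEX, and 8.10 against 8.09 RPKM for east.

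Transcript length, which the rule did not use, varied with the side of the controls. The median length was 1070 nt in genes above the controls and 2567 nt in genes below, against 1704.5 nt over all genes with a length. Among 5 bins of 808 genes by length, the share above the controls was 12.6% in the shortest bin (116 to 963 nt) and 0.371% in the longest (2945 to 48944 nt), while the share below was 5.94% and 42.5%. All 4 knockdown libraries carried this trend. The median of the longest bin minus that of the shortest, relative to the controls, was -0.57 and -0.29 log2 units in NAP1KD, -1.12 and -1.62 in CBPKD, and 0.14 and -0.14 in control (two-sided exact permutation test of 4 against 2 libraries, p = 0.133, the smallest this design allows). Each library was set against the mean of both controls, so the 2 control values mirror each other by construction. The permutation test does not allow for this. The knockdown libraries also had fewer genes at 1 RPKM or more, with 3758 and 3783 in NAP1KD, 3533 and 3094 in CBPKD, and 3875 and 3900 in control. The 20 most abundant genes held 30.8% and 29.2% of the summed RPKM in NAP1KD, 32.9% and 38.1% in CBPKD, and 23.0% and 27.5% in control. The part of these library features in the counts was not tested beyond the removal of the length trend.

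**Figure D4:**
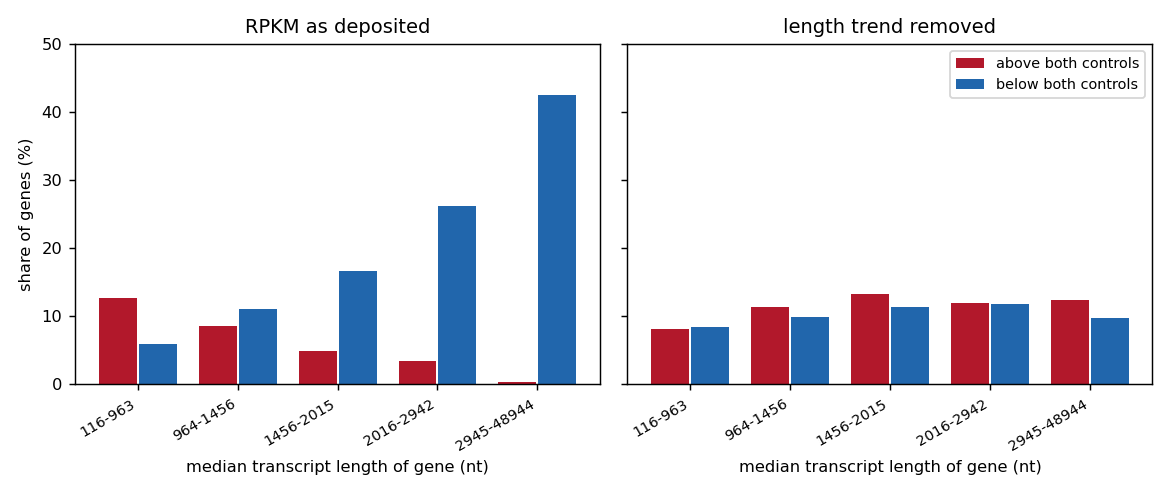
Share of genes in percent (y axis) above or below both controls in 5 equal bins of transcript length in nt (x axis), for the RPKM values as deposited (left) and after a smooth trend on length was removed from each library (right). As deposited, the share below climbs to 42.5% in the longest bin; with the trend removed every bar lies between 8.17% and 13.2%.

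With the length trend removed, 459 of 4040 genes lay above the controls (11.4%) and 412 below (10.2%), so the split of one-sided genes moved to 52.7% above, against 22.5% as deposited. Median-of-ratios scaling gave 452 above and 539 below (45.6% above) and quantile normalization 544 and 454 (54.5% above). These 3 settings raised the median pooled difference of all genes by 0.16, 0.12 and 0.21 log2 units. A rise favours genes above in keeping their side and works against genes below, so the shares kept cannot be compared between the sides. Of the 243 genes above, 193 (79.4%) kept their side under all 3, and of the 837 genes below, 286 (34.2%) did. Among genes with a gap of at least 0.5, these were 19 of 19 above and 44 of 54 below. That gap is wider than each of these median shifts, but removal of the length trend moved each gene by its length. Some long genes with such a gap moved further, such as tou (pooled difference -1.90 to -0.76) and Asx (-1.61 to -0.68). These shares therefore cannot be compared between the sides either. The 286 genes that stayed below had medians of -0.70 in NAP1KD and -1.69 in CBPKD. The median of the mean RPKM over all 6 libraries was 8.33 in genes above and 3.66 in genes below, against 5.31 over all genes. The 4 knockdown libraries enter that mean, and the rule sets them high in genes above and low in genes below. Part of this contrast therefore follows from the choice of genes, and levels in control alone were not compared. CR-named noncoding transcripts were 4.94% of genes above and 1.19% of genes below, against 3.25% of all.

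Gene lists are described by counts and medians beside those of all genes (5.94% above, 20.4% below, median pooled difference -0.14). Counts are of the members analysed, which in every list were fewer than the members listed, so they do not describe whole families. No member of any list passed the pooled test, so the levels of members are given without a call.

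Of 9 histone chaperones measured, 3 were below: Dek, a DNA-binding chromatin protein, and both Caf1 and the gene of the largest subunit of the chromatin assembly factor that deposits H3 and H4 behind replication forks, of which Caf1 is also a subunit. Dek had 0.650 and 1.46 RPKM in NAP1KD, 0.134 and 0.0961 RPKM in CBPKD, and 5.2 and 2.08 RPKM in control. Caf1 was far more abundant, with 18.9 and 16.8 RPKM in NAP1KD, 8.98 and 5.78 RPKM in CBPKD, and 20.2 and 21 RPKM in control, so its NAP1KD libraries lay close to the controls. The list also held Nap1, the target of the NAP-1 knockdown, with a pooled difference of -1.34. With Nap1 included, the list's median was -0.85 pooled, -0.21 in NAP1KD and -1.39 in CBPKD. The pooled median lay between -0.77 and -0.75 under the other 3 scalings, where 2 members were below.

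Among 17 histone acetyltransferases and coactivator subunits, 1 was above (Ada1-1) and 4 were below (nej, Tip60, chm and rept), with a median of -0.03 that was positive, 0.08 to 0.19, under the other scalings. chm, an acetyltransferase of the MYST family, had 0.689 and 1.12 RPKM in NAP1KD, 0.685 and 0.0672 RPKM in CBPKD, and 3.45 and 2.36 RPKM in control. rept, an ATPase of the Tip60 complex, had 10.3 and 2.68 RPKM in NAP1KD, 8.31 and 9.96 RPKM in CBPKD, and 13.1 and 15.1 RPKM in control, with NAP1KD replicate 2 the lowest. chm, Tip60 and rept kept their side under each scaling, and nej did not.

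Of 14 deacetylases and corepressors, 0 were above and 6 below, with a median of -0.44, against -0.18 under quantile normalization and -0.07 with the length trend removed. ttk, a zinc-finger repressor, had 2.00 and 1.42 RPKM in NAP1KD, 0.294 and 0.00154 RPKM in CBPKD, and 11.9 and 2.57 RPKM in control. CtBP, a corepressor, had 1.62 and 2.09 RPKM in NAP1KD, 1.76 and 1.35 RPKM in CBPKD, and 3.69 and 2.68 RPKM in control, and Su(var)3-3, a demethylase of H3K4, had 1.37 and 1.26 RPKM in NAP1KD, 0.263 and 0.141 RPKM in CBPKD, and 1.91 and 1.75 RPKM in control. The list's median length was 3615.5 nt, and with the length trend removed 3 members were above and 0 below.

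Nucleosome remodelling subunits had 0 of 16 above and 8 below (50%), with a median of -0.57, against -0.28 with the length trend removed. tou, a chromatin protein related to Acf1, had 3.14 and 3.47 RPKM in NAP1KD, 0.298 and 0.0913 RPKM in CBPKD, and 9.86 and 5.59 RPKM in control. Acf1, partner of the ISWI ATPase, had 2.24 and 2.42 RPKM in NAP1KD, 0.870 and 0.187 RPKM in CBPKD, and 5.67 and 3.50 RPKM in control. Bap170, a subunit of the PBAP form of the Brahma complex, had 7.28 and 8.84 RPKM in NAP1KD, 1.61 and 0.962 RPKM in CBPKD, and 12.6 and 10.9 RPKM in control. In all 3 genes NAP1KD lay between CBPKD and control, and the direct test separated NAP1KD from CBPKD for tou (1.85 ± 0.35, SE; limma, adjusted p = 0.0444) and Bap170 (2.00 ± 0.30, adjusted p = 0.0346). With the length trend removed 3 members of the list were above and 4 below.

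No linker histone gene was analysed here. Of 14 replacement histone and heterochromatin genes, 0 were above and 5 below (HP5, mod, Su(var)2-10, Su(var)3-7 and CG8290, named ADD1). mod, a nucleolar and chromatin protein that modifies position-effect variegation, had 15.6 and 17.0 RPKM in NAP1KD, 2.35 and 0.154 RPKM in CBPKD, and 64.1 and 22 RPKM in control. Its controls differed more than its NAP1KD replicates did, and the NAP1KD minus CBPKD difference was 3.14 ± 0.62 (SE, limma, adjusted p = 0.0482). Su(var)2-10, a SUMO ligase, had 2.07 and 5.13 RPKM in NAP1KD, 0.774 and 0.805 RPKM in CBPKD, and 8.63 and 6.64 RPKM in control. The list's median was -0.63, and -0.55 with the length trend removed, where 3 members were below.

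Of 33 Mediator and Integrator subunits, which link activators and RNA processing to RNA polymerase II, 2 were above (MED19 and MED30) and 7 below. MED15, a tail subunit bound by activators, had 10.6 and 9.75 RPKM in NAP1KD, 6.71 and 3.74 RPKM in CBPKD, and 17.3 and 13.8 RPKM in control. MED20 had 4.18 and 4.04 RPKM in NAP1KD, 4.63 and 3.73 RPKM in CBPKD, and 5.86 and 6.76 RPKM in control, with like values in both knockdowns (difference -0.01 ± 0.28). MED14, the scaffold subunit, had 3.62 and 3.16 RPKM in NAP1KD, 2.73 and 1.74 RPKM in CBPKD, and 4.80 and 4.36 RPKM in control. The list's median of -0.06 was positive under the other scalings (0.01 to 0.12), and the pooled difference of MED14 was 0.26 with the length trend removed.

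Among 12 small RNA genes, loqs was above, with the values given above, and 4 were below (gw, armi, AGO1 and AGO2). gw, the partner of Argonaute in microRNA silencing, had 0.498 and 0.767 RPKM in NAP1KD, 0.00749 and 5.12e-09 RPKM in CBPKD, and 3.70 and 1.63 RPKM in control. armi, a helicase of the piRNA pathway, had 1.26 and 1.25 RPKM in NAP1KD, 0.717 and 0.339 RPKM in CBPKD, and 3.9 and 1.87 RPKM in control. The list's median was -0.98, against -0.30 with the length trend removed, where 1 member was above and 1 below. In mRNA splicing, export and decay, 1 of 20 genes was above and 0 below: Clp, a cleavage and polyadenylation factor, had 6.86 and 7.47 RPKM in NAP1KD, 10.1 and 11.2 RPKM in CBPKD, and 5.85 and 6.33 RPKM in control.

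Of 24 cytosolic ribosomal protein genes analysed, out of 81 listed, 1 was above and 0 below, with a median of 0.33 that was 0.03 under quantile normalization. The one above, RpL18, had 54.1 and 41.1 RPKM in NAP1KD, 61.9 and 84.3 RPKM in CBPKD, and 33 and 30.7 RPKM in control. Of 11 translation factors, 1 was above and 2 below. CG9769, named eIF3f1, had 282 and 274 RPKM in NAP1KD, 355 and 474 RPKM in CBPKD, and 189 and 238 RPKM in control. Below were eIF-4E, named eIF4E1, which binds the mRNA cap (2.85 and 3.14 RPKM in NAP1KD, 0.679 and 1.01 RPKM in CBPKD, 7.46 and 5.29 RPKM in control), and eIF-4B, a helper of the eIF4A helicase (4.56 and 7.47 RPKM in NAP1KD, 1.25 and 0.286 RPKM in CBPKD, 23.3 and 9.48 RPKM in control). All 4 of these genes kept their side under each scaling.

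Of 38 oxidative phosphorylation genes, 5 were above (13.2%) and 1 below (2.63%), with a median of 0.42 and a median length of 751 nt. Those above were CG7630, CG12859, CG3192, ATPsyn-b and ATPsynG. CG12859, named ND-B15, a complex I subunit, had 27.0 and 23.4 RPKM in NAP1KD, 34.8 and 57.0 RPKM in CBPKD, and 16.4 and 18.5 RPKM in control. The one below, CG7580, named UQCR-Q, a complex III subunit, had 31.5 and 45.0 RPKM in NAP1KD, 30.8 and 18.3 RPKM in CBPKD, and 86.4 and 57.2 RPKM in control. The list's median was 0.17 with the length trend removed, where 3 were above and 2 below. Of 9 glycolysis and pentose phosphate genes 0 were above and 2 below: ImpL3, lactate dehydrogenase, had 249 and 305 RPKM in NAP1KD, 89.9 and 125 RPKM in CBPKD, and 325 and 388 RPKM in control, and Ald, aldolase, had 0.951 and 1.19 RPKM in NAP1KD, 0.569 and 0.150 RPKM in CBPKD, and 1.51 and 1.69 RPKM in control. Of 6 proteasome genes analysed, out of 32 listed, only the ubiquitin receptor Rpn10 was above (41.2 and 36.4 RPKM in NAP1KD, 57.4 and 45.2 RPKM in CBPKD, 35.3 and 32.5 RPKM in control), and 0 were below.

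**Figure D5:**
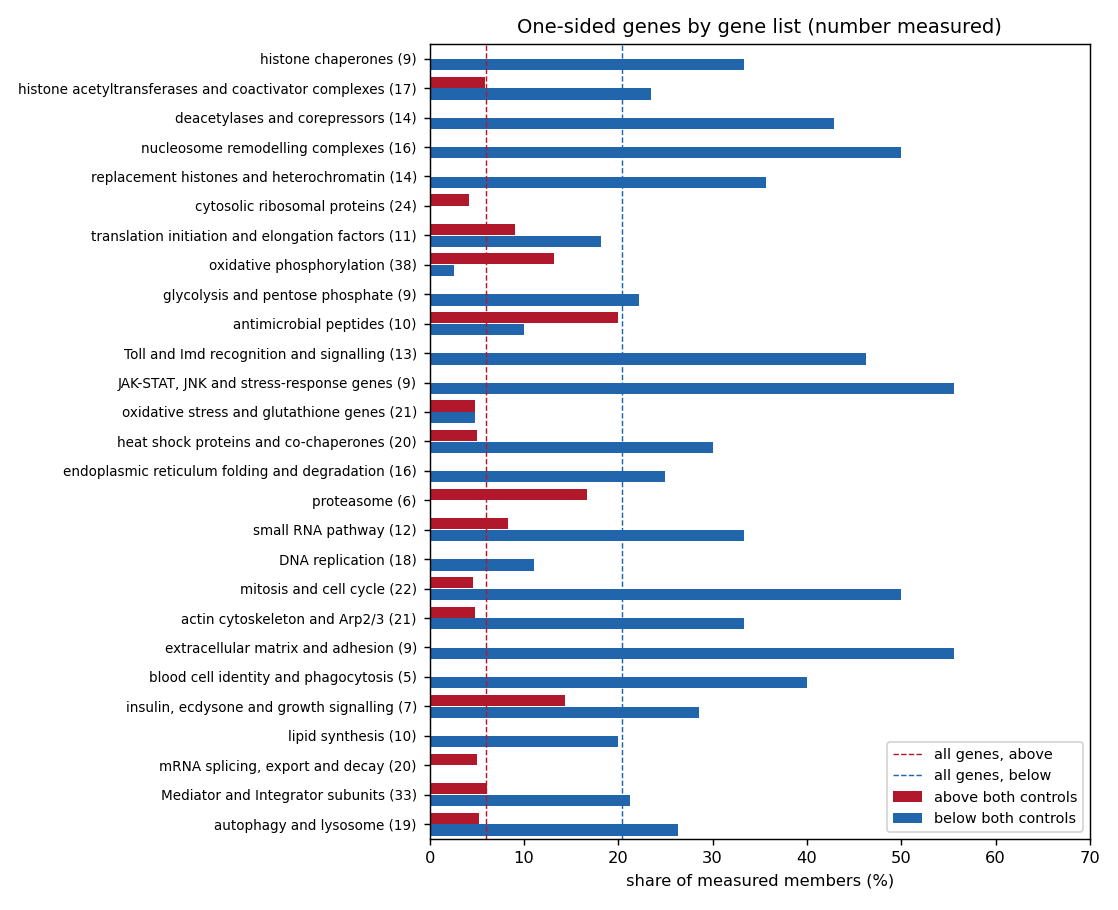
Share of measured members (x axis, percent) above and below both controls for 27 gene lists (y axis, with the number of members measured in parentheses); dashed lines mark the shares over all genes, 5.94% above and 20.4% below. Remodelling and mitosis lists have 50% of members below, and the oxidative phosphorylation list has 13.2% above.

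Antimicrobial peptides are secreted effectors that the Toll and Imd pathways induce. Of 10 antimicrobial peptide genes, 2 were above (CecA1 and CecA2) and 1 was below (Dpt), with a median of 0.83, against 0.41 with the length trend removed, and a median length of 387 nt. CecA1, a cecropin, had 27.9 and 20.4 RPKM in NAP1KD, 43.9 and 42.6 RPKM in CBPKD, and 16.2 and 19.7 RPKM in control. CecA2 had 8.55 and 6.20 RPKM in NAP1KD, 8.06 and 7.91 RPKM in CBPKD, and 4.91 and 5.45 RPKM in control, and the near-identical sequences of these 2 genes leave their separate values uncertain. Dpt, diptericin, had 0.750 and 0.939 RPKM in NAP1KD, 1.12 and 1.10 RPKM in CBPKD, and 1.23 and 1.14 RPKM in control, and its pooled difference of -0.15 was 0.28 under quantile normalization. With the length trend removed 0 members of the list were one-sided.

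Of 13 Toll and Imd recognition and signalling genes, 0 were above and 6 below (46.2%), with a median of -0.53. With the length trend removed 1 was above and 5 below, with a median of -0.17. Fadd, an adaptor of the Imd pathway, had 5.29 and 3.35 RPKM in NAP1KD, 4.63 and 3.55 RPKM in CBPKD, and 7.72 and 7.61 RPKM in control. key, the regulatory subunit of the IκB kinase, had 10.4 and 8.99 RPKM in NAP1KD, 8.63 and 2.23 RPKM in CBPKD, and 19.1 and 14 RPKM in control. Both kept their side under each scaling. Tab2, a cofactor of the Tak1 kinase, had 6.13 and 6.82 RPKM in NAP1KD, 6.11 and 5.01 RPKM in CBPKD, and 9.53 and 8.71 RPKM in control, and overlapped the controls with the length trend removed.

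Of 9 JAK-STAT, JNK and stress-response genes, 0 were above and 5 below (Gadd45, slpr, kay, hep and msn), with a median of -0.84, against -0.07 with the length trend removed. Gadd45, a stress-induced activator of JNK and p38 kinases, had 7.34 and 7.47 RPKM in NAP1KD, 5.19 and 3.28 RPKM in CBPKD, and 12.2 and 11.4 RPKM in control. slpr, a JNK kinase kinase, had 1.03 and 1.69 RPKM in NAP1KD, 0.744 and 0.287 RPKM in CBPKD, and 2.98 and 2.46 RPKM in control. kay, the Fos part of AP-1, had 50.4 and 68.6 RPKM in NAP1KD, 35.6 and 15.5 RPKM in CBPKD, and 94.1 and 78.8 RPKM in control. Gadd45, slpr and kay kept their side under each scaling. With the length trend removed, however, the pooled difference went from -0.99 to -0.19 for slpr and from -1.18 to -0.57 for kay. For Gadd45 it went from -0.96 to -0.93.

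Of 21 oxidative stress and glutathione genes, 1 was above and 1 below. GstD9, a glutathione S-transferase with close paralogs, had 19.1 and 15.3 RPKM in NAP1KD, 18.6 and 24.2 RPKM in CBPKD, and 12.7 and 14.2 RPKM in control. GstO1 had 2.31 and 2.48 RPKM in NAP1KD, 2.96 and 2.90 RPKM in CBPKD, and 3.24 and 3.00 RPKM in control, and its pooled difference of -0.17 was 0.15 under quantile normalization. Of 20 heat shock genes 1 was above (Hsp23) and 6 below, and 0 were one-sided with the length trend removed. Hsf, the heat shock transcription factor, had 3.79 and 3.61 RPKM in NAP1KD, 3.93 and 2.21 RPKM in CBPKD, and 4.62 and 4.68 RPKM in control. DnaJ-1, an Hsp40, had 11.5 and 19.5 RPKM in NAP1KD, 15 and 7.83 RPKM in CBPKD, and 22.4 and 21.8 RPKM in control. Cdc37, which brings kinases to Hsp90, had 13.1 and 15.7 RPKM in NAP1KD, 8.78 and 4.17 RPKM in CBPKD, and 18.1 and 17.4 RPKM in control.

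Of 16 genes of folding and degradation in the endoplasmic reticulum, 0 were above and 4 below (Ero1L, Ire1, crc and ERp60). Ero1L, the oxidase that drives disulfide formation, had 13.6 and 13.1 RPKM in NAP1KD, 9.77 and 4.77 RPKM in CBPKD, and 19.2 and 18.1 RPKM in control. Ire1, a sensor of unfolded proteins, had 10.7 and 11.3 RPKM in NAP1KD, 6.46 and 3.06 RPKM in CBPKD, and 14.8 and 13.7 RPKM in control. crc, the fly ATF4, had 15.8 and 22.9 RPKM in NAP1KD, 15.6 and 5.95 RPKM in CBPKD, and 25.2 and 24.6 RPKM in control. Of these Ero1L kept its side under each scaling, and Ire1 and crc did not.

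Of 22 mitosis and cell cycle genes, 1 was above (Det) and 11 below (50%), with a median of -0.90, against -0.36 with the length trend removed. Klp61F, the kinesin that pushes spindle poles apart, had 5.74 and 6.38 RPKM in NAP1KD, 2.00 and 0.209 RPKM in CBPKD, and 12.2 and 9.33 RPKM in control. With msps and CycG it kept its side under each scaling, and the list had 4 to 6 members below under the other scalings. Of 18 DNA replication genes, 0 were above and 2 below. PolA1 (its RefSeq name), the catalytic subunit of the primase-polymerase, had 1.40 and 1.26 RPKM in NAP1KD, 0.142 and 0.0350 RPKM in CBPKD, and 5.00 and 2.53 RPKM in control. Gnf1, a large clamp loader subunit, had 8.78 and 6.23 RPKM in NAP1KD, 7.19 and 4.37 RPKM in CBPKD, and 10.2 and 8.86 RPKM in control. The replication list had a median of -0.15, close to all genes, and with the length trend removed the median was 0.18, with 5 members above and 1 below.

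Of 21 actin and Arp2/3 genes, 1 was above and 7 below, and 1 or 2 were below under the other scalings. Arpc3B, a subunit of the Arp2/3 complex that nucleates branched actin, had 8.37 and 9.92 RPKM in NAP1KD, 17.9 and 17.4 RPKM in CBPKD, and 5.21 and 5.05 RPKM in control, and stayed above under each scaling. ena, which lengthens actin filaments, had 3.53 and 7.21 RPKM in NAP1KD, 0.323 and 0.0245 RPKM in CBPKD, and 12.9 and 8.86 RPKM in control. Act42A, a cytoplasmic actin with close paralogs, had 184 and 163 RPKM in NAP1KD, 72 and 17.6 RPKM in CBPKD, and 250 and 206 RPKM in control. NAP1KD minus CBPKD differences were -0.88 ± 0.25 for Arpc3B (SE, limma, adjusted p = 0.0805), 2.39 ± 0.39 for ena (adjusted p = 0.0415) and 2.24 ± 0.59 for Act42A (adjusted p = 0.0675).

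Of 9 extracellular matrix and adhesion genes, 0 were above and 5 below (LanA, vkg, Glt, LanB1 and Mmp1). With the length trend removed 1 was above and 1 below. LanA, a laminin chain, had 9.76 and 11.7 RPKM in NAP1KD, 2.53 and 1.27 RPKM in CBPKD, and 57.5 and 16.2 RPKM in control. vkg, a collagen IV chain, had 51.5 and 55 RPKM in NAP1KD, 31.5 and 25.2 RPKM in CBPKD, and 60.8 and 63.9 RPKM in control, and its pooled difference was 0.24 with the length trend removed. Glt, a basement membrane glycoprotein, had 55.6 and 107 RPKM in NAP1KD, 18.2 and 6.22 RPKM in CBPKD, and 125 and 117 RPKM in control. Of 5 blood cell genes measured 2 were below. Pvr, a receptor kinase needed for blood cell survival, had 44.5 and 37.1 RPKM in NAP1KD, 29.3 and 12.5 RPKM in CBPKD, and 64.2 and 47.3 RPKM in control, and drpr, an engulfment receptor, had 2.61 and 2.50 RPKM in NAP1KD, 1.61 and 1.18 RPKM in CBPKD, and 3.68 and 3.22 RPKM in control.

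Of 7 insulin, ecdysone and growth genes, 1 was above and 2 below. ImpL2, a secreted protein that binds and blocks insulin-like peptides, had 94.1 and 182 RPKM in NAP1KD, 11.6 and 3.45 RPKM in CBPKD, and 376 and 232 RPKM in control. It had the largest NAP1KD minus CBPKD difference of the genes named here, 4.14 ± 0.56 (SE, limma, adjusted p = 0.0345), and a pooled difference of -3.24 ± 0.49, or -3.22 with the length trend removed. S6k, the ribosomal protein S6 kinase, had 2.16 and 4.86 RPKM in NAP1KD, 1.05 and 0.399 RPKM in CBPKD, and 9.21 and 5.18 RPKM in control. The one above, Eip71CD, named MsrA, a methionine sulfoxide reductase induced by ecdysone, had 14.3 and 14.2 RPKM in NAP1KD, 25.7 and 29.8 RPKM in CBPKD, and 11.5 and 12.4 RPKM in control.

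Of 10 lipid synthesis genes 0 were above and 2 below. Fpps, farnesyl pyrophosphate synthase, had 25.9 and 35.2 RPKM in NAP1KD, 10.9 and 4.04 RPKM in CBPKD, and 64 and 42.1 RPKM in control, and Lpin, lipin, had 11 and 9.80 RPKM in NAP1KD, 8.18 and 6.37 RPKM in CBPKD, and 16 and 15.4 RPKM in control. Of 19 autophagy and lysosome genes 1 was above (Atg12) and 5 below (Atg1, Atg13, ref(2)P, Mitf and Vha68-2). ref(2)P, the fly p62 and a carrier of ubiquitinated cargo, had 7.70 and 9.40 RPKM in NAP1KD, 5.65 and 1.37 RPKM in CBPKD, and 11.3 and 13.9 RPKM in control. Atg1, the kinase that starts autophagy, had 1.16 and 1.31 RPKM in NAP1KD, 0.493 and 0.161 RPKM in CBPKD, and 2.45 and 1.51 RPKM in control. The autophagy list had a median of -0.37, against 0.01 with the length trend removed, where 2 were above and 1 below; ref(2)P and Atg12 kept their side under each scaling, and Atg1 did not.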

How the data were processed

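Messenger RNA of 6 S2 samples was sequenced from strand-specific libraries on a MiSeq, per the labels' protocols and the series' design text. The authors deposited 1 table, which holds RPKM values for each feature and, for each sample, a count of its alignments. Per the submitters' processing notes the build was dm3. The aligner, the counting tool and whether strand was used: not given in the sources used here; overlapping genes therefore cannot be told apart.

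The table held 16381 feature columns, of which 5222 were used and 11159 were not analysed here; these were repeats of identical values, features of genes under a mean of 1 RPKM and features under 2% of their gene. Values were summed per symbol, and 4093 genes had a mean of at least 1 RPKM. The table is 16384 columns wide, and any feature beyond its last column was not analysed here, so sums over features may miss isoforms. Transcript lengths came from the BDGP6 annotation (release 6), matched by name for 4040 genes, and names from the RefSeq gene table of the same release; no coordinates or sequences are given, because the builds differ and no sequence was used here.

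Log2(RPKM + 1) was fitted in limma 3.58.1 (R 4.3.3) with 3 groups, a variance trend and Benjamini-Hochberg adjustment over 4093 genes at 0.05. The pooled contrast was the mean of NAP1KD and CBPKD minus controlKD. On simulated data with 4093 genes (20 sets), the pooled contrast found 12.9% of genes changed 2-fold and 65.2% of those changed 4-fold, and 3.93% of its calls were false. The changes were made on the log2(RPKM + 1) scale, so for low genes they were larger in RPKM. Both knockdowns were given the same change, noise was independent between genes, and no length trend was included. The rates therefore need not hold in the real data. Alternatives covered the pseudocount, minimum mean, scaling, feature summing, a loess trend on length (span 0.5), model groups, replicate number, variance trend and each sample left out.

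The members and gene lists were chosen with earlier results of these data known. The text names Nap1, nej, the 12 genes of largest gap per side, up to 3 members of largest gap per list, and 2 genes per side just inside and just outside the rule; symbols that begin with a digit are not named. Named after their values were seen, to complete counts, were Ada1-1, Su(var)3-7, CG8290, MED19, MED30, AGO1, AGO2, CG3192, ATPsyn-b, hep, msn, Hsp23, ERp60, Det, LanB1, Mmp1, Atg13, Mitf and Vha68-2, with TotM and RpL26 and the markers crq, Cg25C, elav, Mlc2 and sls. A gene that is no subunit was taken out of the Mediator list after values were seen.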

Additional observations from a re-analysis of the deposited data

Results flagged for a closer look

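Of the genes named above, 12 differed between the knockdowns in the direct test (limma on log2(RPKM + 1), adjusted over 4093 genes; values are NAP1KD minus CBPKD with SE, 2 samples each). No explanation was tested for any of them.

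Nap1, the target of 1 of the knockdowns, differed by -3.83 ± 0.27 (adjusted p = 0.00879), a call kept in 14 of 15 alternative analyses and lost without CBPKD replicate 2. The other genes lower in NAP1KD were CG14818 (-1.75 ± 0.32, adjusted p = 0.0443), CG15210 (-2.51 ± 0.31, adjusted p = 0.0345), CG3097 (-2.22 ± 0.32, adjusted p = 0.0345) and CR44417 (-2.05 ± 0.39, adjusted p = 0.0444). Their calls held in 6 of 14, 7 of 14, 6 of 14 and 5 of 14 alternatives.

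The genes higher in NAP1KD, all of them below the controls, were msps (2.20 ± 0.33, adjusted p = 0.0345), tou (1.85 ± 0.35, adjusted p = 0.0444), Bap170 (2.00 ± 0.30, adjusted p = 0.0346), mod (3.14 ± 0.62, adjusted p = 0.0482), ena (2.39 ± 0.39, adjusted p = 0.0415), Glt (2.73 ± 0.51, adjusted p = 0.0443) and ImpL2 (4.14 ± 0.56, adjusted p = 0.0345). The calls held in 8 of 15 alternatives for msps, Bap170, Glt and ImpL2, in 7 of 15 for ena, in 5 of 15 for mod and in 3 of 14 for tou. Over the alternatives, adjusted p ranged between 0.031 and 0.274 for these 11 genes other than Nap1.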

How the results depend on the processing

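The pooled test called 0 genes in either direction under each alternative run except the looser threshold and 2 libraries left out: 80 higher and 309 lower at an adjusted p under 0.1, and 0 to 1 in each direction with 1 library left out (TotM, 5.95, adjusted p = 0.0495, without NAP1KD replicate 2; RpL26, -4.94, adjusted p = 0.0142, without control replicate 2). The counts above and below both controls were 158 and 326 with a minimum of 5 RPKM, 452 and 539 after scaling by median of ratios, 459 and 412 after removal of the length trend, and 544 and 454 after quantile normalization. With 1 library left out they ranged from 261 to 928 above and from 854 to 1342 below. That rise is fixed in direction, because a rule on fewer libraries keeps every gene that met it on all of them.

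CBPKD calls over all genes were 318 lower with a minimum of 5 RPKM, 438 with quantile normalization and 421 with the length trend removed; with 1 library left out they ranged from 0 to 557 higher and from 0 to 793 lower. Among genes below the controls these settings gave 200, 302 and 296, and leaving out 1 library 0 to 481 (0 to 120 among genes above). NAP1KD calls lower were 0 with median-of-ratios scaling or the length trend removed, and 0 to 1 with 1 library left out. Calls of NAP1KD against CBPKD among genes above and below were 0 and 0 with a pseudocount of 0.1 or single features, 9 and 41 with a minimum of 5 RPKM, and 11 and 35 without a variance trend; among genes below they were 43 with quantile normalization and 36 with the length trend removed. They ranged from 0 to 22 above and from 0 to 108 below with 1 library left out.

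The labels do not say whether replicate numbers pair the samples. Same-numbered deviations correlated at -0.25 (NAP1KD and CBPKD), 0.24 (NAP1KD and control) and 0.15 (CBPKD and control). With 2 samples a group these values cannot decide whether samples were paired, and the main model treated them as unpaired. With the replicate block the pooled test called 0 genes higher and 0 lower, NAP1KD called 0 lower, CBPKD called 71 genes above and 414 below, and NAP1KD against CBPKD called 0 and 0.

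Of 1549 pooled differences of 100 named genes under alternatives, 1540 kept direction and 9 turned positive: nej (0.36), Hsf (0.03), Gnf1 (0.03), vkg (0.24), drpr (0.03) and MED14 (0.26) with the length trend removed, and HHEX (0.02), Dpt (0.28) and GstO1 (0.15) with quantile normalization. The cause was not tested. Analyses with no minimum level and with repeated columns kept were not run. With 2 samples a group, the pooled test found 12.9% of 2-fold changes simulated over 4093 genes; recovery by level or depth was not tested.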
